A study of Mus musculus with 9 samples.

Results

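The 6 genes described here, H2-Aa, H2-Ab1, H2-Eb1, Cd74, H2-DMa and Ciita, encode the antigen presentation machinery of MHC class II, and all 6 were found among the 52636 genes of the count table. They were chosen by their measured levels in these libraries, because the cocaine groups moved apart, so their differences between groups are given as a description and without a test. RNA was sequenced from cells of the nucleus accumbens of male C57BL/6 mice, sorted by a fluorescent antibody to ChAT (choline acetyltransferase, which makes acetylcholine). The study asked how the cells of mice with different cocaine-seeking behaviour differ. The 9 libraries form 3 groups of 3. Mice of the SUS and RES groups worked for cocaine infusions of 1.2 mg/kg each, in 10 daily progressive ratio sessions. They were taken on day 3 after the last session. The treatment protocol also names fixed ratio sessions of at most 40 infusions, and sessions of 23 h per day. The naive mice, titled WT, are labelled as cocaine-naive. Each condition pooled 2 to 3 mice, and whether each library had a pool of its own is not given in the sources used here, nor are the ages. For SUS and RES the titles and the behaviour field contradict each other, since libraries titled RES carry the field value for susceptible mice and those titled SUS that for resilient mice. The groups are called by their titles, and neither is taken to be the susceptible one.

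Class II molecules are heterodimers of an alpha and a beta chain that display peptides from engulfed proteins to helper T cells. In the endoplasmic reticulum they bind the invariant chain, which guides them to endosomes and is there cut by proteases until DM exchanges its last fragment for a peptide. In the brain, class II is mostly found on macrophages at the borders of the tissue and on other blood-derived cells, and on microglia when they are activated.

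Total counts ran from 4471675 to 11155730 per library. Background was taken as the counts per exonic kb of 1134 olfactory receptor genes, which are largely silent in the brain, and ran from 6.07 to 21.2. A value of 1 times background is thus the density of genes that should be silent, and 95% of the single receptor genes lay below 1.8 to 2.09 times background in each library. The label of cholinergic interneurons was not borne out by its markers, since 0 of 9 averaged over 3 times background. Over the 9 libraries the choline transporter gene Slc5a7 ran from 0.8 to 1.46 times background, the vesicular transporter gene Slc18a3 from 0.395 to 2.29 and Chat from 0.877 to 7.86. The summed markers were highest in SUS replicate 2, at 199 CPM, against 101 and 113 in SUS replicates 1 and 3. RES libraries had 118 to 133 CPM and naive libraries 106 to 134. Levels of the 18 microglial genes differed widely, with summed levels of 326 to 5857 CPM in SUS libraries, against 191 to 1851 in RES and 375 to 3431 in naive libraries. CPM are depth-scaled counts, corrected with edgeR's TMM factors.

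The chain genes H2-Aa, H2-Ab1 and H2-Eb1 were higher in SUS replicates 1 and 3 than in any RES library, and SUS replicate 2 lay among the RES libraries. They sit together on chromosome 17 (GRCm38), H2-Aa (ENSMUSG00000036594) at 34282744 to 34287823 on the minus strand, H2-Ab1 (ENSMUSG00000073421) at 34257689 to 34269419 and H2-Eb1 (ENSMUSG00000060586) at 34305867 to 34316674, both on the plus strand. H2-Ab1, the beta chain of the I-A molecule, had 50, 14.5 and 52.8 CPM in SUS replicates 1 to 3. Its RES libraries had 22.4, 11.6 and 9.75 CPM, and its naive libraries 25.3, 35.4 and 26.8 CPM. All 3 RES libraries lay below every naive library, while SUS replicate 2 lay below naive and the other 2 SUS libraries above it. H2-Ab1 had a log2 fold change of 1.42 (SE 0.423) for SUS against RES, -0.99 (SE 0.424) for RES against naive and 0.43 (SE 0.41) for SUS against naive. H2-Aa, the alpha chain of I-A, had 32.1, 12.4 and 28 CPM in SUS libraries, against 15.2, 9.02 and 11.4 in RES and 15.2, 19 and 26.3 in naive libraries. RES replicate 1 and naive replicate 1 were level for this gene, so RES and naive overlapped. Its log2 fold changes were 1.02 (SE 0.338), -0.76 (SE 0.341) and 0.25 (SE 0.328) in the same order of comparisons. The SUS against naive value of H2-Aa depended on single libraries. It was -0.01 with SUS replicate 1 left out, 0.13 with SUS replicate 3 left out and 0.08 with naive replicate 1 left out, and 0.56 or 0.51 with SUS replicate 2 or naive replicate 3 left out. That of H2-Ab1 was 0.20 with SUS replicate 1 left out, 0.82 with SUS replicate 2 left out and 0.15 with SUS replicate 3 left out.

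H2-Eb1 encodes the beta chain of the I-E molecule. In C57BL/6 mice the alpha chain of I-E is not made, because the gene that encodes it, listed as H2-Ea-ps, has lost its promoter. H2-Eb1 had 29.2, 11.5 and 26.7 CPM in SUS libraries, against 14.6, 11.2 and 10.4 in RES and 15.3, 19.3 and 25.4 in naive libraries. As for H2-Ab1, every RES library was below every naive library, and SUS overlapped both groups. The log2 fold changes of H2-Eb1 were 0.90 (SE 0.323) for SUS against RES, -0.74 (SE 0.326) for RES against naive and 0.16 (SE 0.315) for SUS against naive. The last value turned to -0.08 with SUS replicate 1 left out and to -0.006 with naive replicate 1 left out. It was 0.02 with SUS replicate 3 left out, and 0.47 or 0.38 with SUS replicate 2 or naive replicate 3 left out. H2-Ea-ps, looked up after the data were seen as a gene of the same locus that should be silent, was at 1.71 to 2.15 times background in SUS, 1.81 to 2.41 in RES and 1.87 to 3.02 in naive libraries.

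The promoters of H2-Aa and H2-Eb1 are shown because levels of these genes ran together over the libraries and because the factors that Ciita binds meet the DNA there. Both are from RefSeq (GRCm38.p6), cover the 130 bases before the annotated start, and are written along the gene. H2-Aa lies at chr17:34287824-34287953 on the minus strand and H2-Eb1 at chr17:34305737-34305866 on the plus strand. Capitals mark CTGATTGG, the Y box core that holds an inverted CCAAT, and TGACGTCA, the cAMP response element that forms the X2 part of the X box.
H2-Aa: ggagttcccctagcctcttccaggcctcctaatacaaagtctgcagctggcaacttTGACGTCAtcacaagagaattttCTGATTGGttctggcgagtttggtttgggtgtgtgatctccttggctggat
H2-Eb1: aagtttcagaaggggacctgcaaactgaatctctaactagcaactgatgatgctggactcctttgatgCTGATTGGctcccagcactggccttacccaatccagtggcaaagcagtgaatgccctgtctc
The Y box core began 51 bases before the start in H2-Aa and 62 bases before it in H2-Eb1, and the cAMP response element began 74 bases before the start of H2-Aa. Searched on both strands of the 250 bases before the start, CTGATTGG was in 3.83% of 32851 RefSeq promoters, TGACGTCA in 1.55% and CCAAT, which CTGATTGG contains in reverse, in 33.8%. Among the other class II promoters looked at, CTGATTGG was also found in H2-Oa and H2-Eb2. Promoters of Cd74, H2-Ab1 and Ciita were not among those looked at, so nothing is said of their motifs. Both of the H2-DMa windows lacked it, and 1 of the 2 held a CCAAT. These matches describe letters and do not show binding.

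Cd74, the invariant chain, had the highest count density of the 6 genes in every library and differed most between groups. The gene (ENSMUSG00000024610) lies on chromosome 18 at 60803848 to 60812652 on the plus strand (GRCm38), with 1679 exonic bases. Cd74 had 123, 26.4 and 151 CPM in SUS libraries, against 47.9, 13.5 and 11.8 in RES and 52.4, 90.1 and 55.4 in naive libraries. SUS replicates 1 and 3 were above every other library, all 3 RES libraries were below every naive library, and SUS replicate 2 was below RES replicate 1. The means were 100.2 ± 65.4 CPM in SUS, 24.4 ± 20.3 CPM in RES and 66 ± 20.9 CPM in naive libraries (SD, n = 3 each). The log2 fold change of Cd74 was 2.04 (SE 0.6) for SUS against RES, -1.43 (SE 0.593) for RES against naive and 0.61 (SE 0.576) for SUS against naive. Leaving out RES replicate 1 took the RES against naive value to -2.36, and leaving out SUS replicate 2 or SUS replicate 3 took the SUS against naive value to 1.06 or 0.19. In bulk libraries fewer cells of a type and less RNA per cell cannot be told apart.

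**Figure D1:**
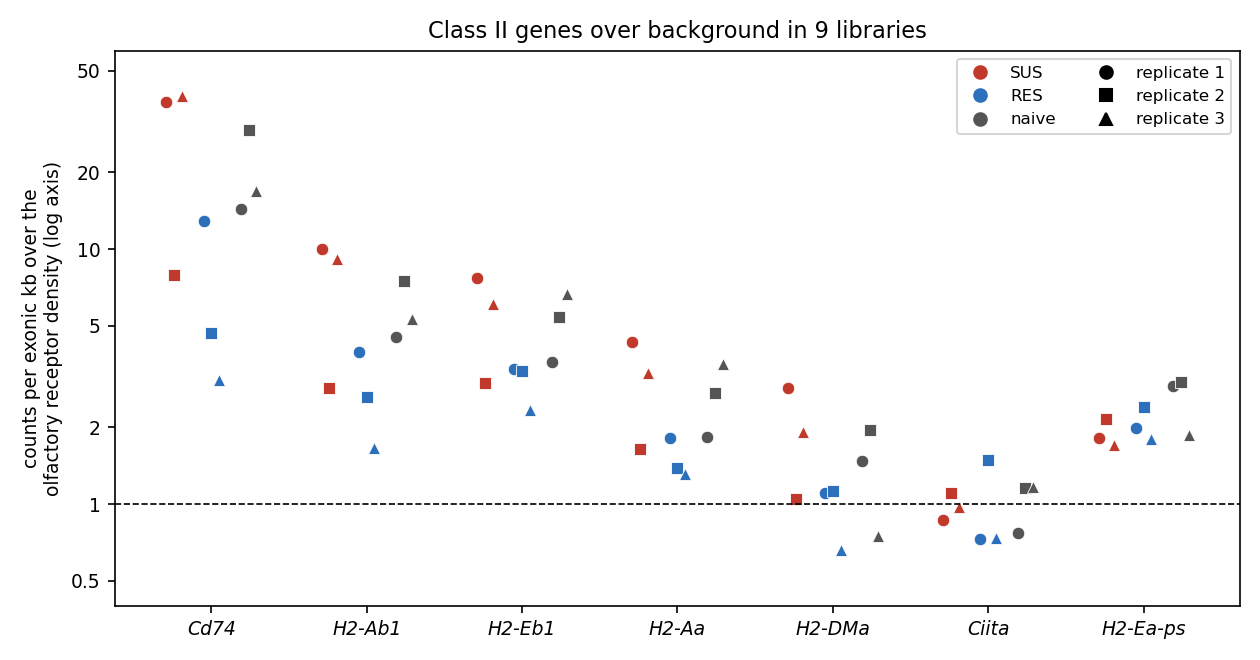
Counts per exonic kb of each gene divided by the density of olfactory receptor genes (log axis), 1 point per library, coloured by group and shaped by replicate; the dashed line is background. Cd74 reached 39.8 times background in SUS replicate 3, while Ciita stayed between 0.733 and 1.49 in all 9 libraries.

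H2-DMa, the alpha chain of the peptide exchange factor DM, was near background in most libraries. The gene (ENSMUSG00000037649) spans 34119541 to 34139101 on chromosome 17 and shares 360 exonic bases with Brd2 on the other strand. H2-DMa had 19.2, 7.21 and 15 CPM in SUS libraries, against 8.41, 6.66 and 5.2 in RES and 11.1, 12.4 and 5.09 in naive libraries. SUS replicates 1 and 3 were the highest of the 9, and naive replicate 3 was the lowest, unlike its place for the chain genes. The log2 fold changes of H2-DMa were 1.04 (SE 0.376) for SUS against RES, -0.45 (SE 0.39) for RES against naive and 0.58 (SE 0.367) for SUS against naive. Single libraries moved both comparisons with naive. RES against naive was -0.80 with naive replicate 3 left out, and between -0.28 and -0.24 with naive replicate 1, naive replicate 2 or RES replicate 3 left out. SUS against naive was 0.24 with naive replicate 3 left out, 0.25 with SUS replicate 1 left out and 0.90 with SUS replicate 2 left out. Over background it stood at 1.05 to 2.86 in SUS, 0.659 to 1.12 in RES and 0.753 to 1.96 in naive libraries. Brd2, a chromatin reader, had 110.2 to 325 CPM in SUS libraries, against 37.7 to 136.9 in RES and 88.9 to 246 in naive libraries, and the strand setting of the counting is not given in the sources used here.

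Ciita, the coactivator that switches on class II promoters, lay at 0.863 to 1.11 times background in SUS, 0.733 to 1.49 in RES and 0.771 to 1.16 in naive libraries. The gene (ENSMUSG00000022504) lies on chromosome 16 at 10480059 to 10528418 on the plus strand, and shares 329 exonic bases with Dexi on the other strand. Ciita had 16, 20.9 and 20.9 CPM in SUS libraries, against 15.4, 24.5 and 16.1 in RES and 16, 20.2 and 21.8 in naive libraries. The 3 groups overlapped throughout, and the highest library was RES replicate 2, where the other 5 genes were low. The log2 fold changes were 0.05 (SE 0.246), -0.06 (SE 0.249) and -0.002 (SE 0.246) for SUS against RES, RES against naive and SUS against naive. Between 18.7% and 75.4% of the olfactory receptor genes had at least the count density of Ciita in the 9 libraries, so a level of Ciita was not detectable above background at this depth. The share for Cd74 was 0% in 8 libraries and 0.882% in RES replicate 3.

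Per exonic kb, the order of the 6 genes was the same in the 5 libraries SUS replicates 1 and 3, RES replicate 1 and naive replicates 1 and 2, namely Cd74, H2-Ab1, H2-Eb1, H2-Aa, H2-DMa and Ciita. In the other 4 libraries H2-Eb1 stood above H2-Ab1 and Ciita above H2-DMa, and in RES replicate 2 Ciita stood also above H2-Aa. At the low end the neighbours were close. H2-Aa was at 1.31 to 1.82 times background in RES libraries, within or under the range of H2-Ea-ps, and H2-Ab1 in RES replicate 3 was at 1.66. In the SUS libraries H2-Aa was at 1.64 to 4.33 and H2-Eb1 at 2.98 to 7.73 times background, and in naive libraries at 1.84 to 3.53 and 3.62 to 6.66.

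For SUS against RES, all 6 genes had a positive log2 fold change with a median of 1.03, beside 51.2% of all 39210 genes tested and a median of 0.01 over all of them. None of the 6 was separated, as 0 of 6 had every SUS library above every RES library, a pattern found in 3.41% of all genes. For RES against naive, all 6 had a negative fold change (median -0.75, against -0.02 over all genes), and 3 of 6, Cd74, H2-Ab1 and H2-Eb1, had every RES library below every naive library, a pattern found in 2.82% of all genes. For SUS against naive, 5 of 6 were positive (median 0.34, against 0.02), and 0 of 6 had every SUS library above every naive library, which 3.85% of all genes had. The members were chosen on these contrasts and the comparisons share libraries, so nothing is read from these shares. The SUS against naive median depended on single libraries. It was 0.69 when SUS replicate 2 was left out, 0.15 or 0.14 when it was SUS replicate 1 or 3, and 0.21 when it was naive replicate 1. By edgeR's quasi-likelihood test with Benjamini-Hochberg adjustment, 0% of all genes were called in each of the 3 comparisons, with 2227, 361 and 1225 genes at an unadjusted p under 0.05 for SUS against RES, RES against naive and SUS against naive. DESeq2 and limma-voom also called 0 genes in each. All 6 genes passed the filter on low counts.

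**Figure D2:**
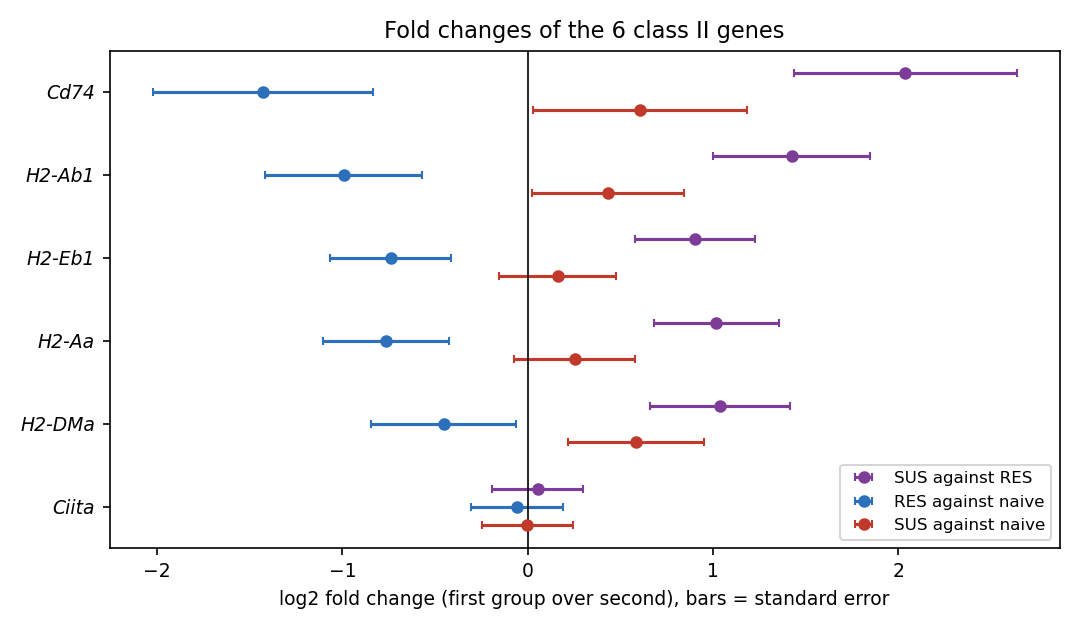
Log2 fold changes of the 6 genes (points) with standard errors (bars) for SUS against RES, RES against naive and SUS against naive. Cd74 lay farthest from 0 in SUS against RES (2.04) and RES against naive (-1.43), and Ciita lay within 0.06 of 0 in all 3 comparisons.

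The microglial genes Cx3cr1, P2ry12 and Tmem119 were lowest in 4 libraries, SUS replicate 2, RES replicates 2 and 3 and naive replicate 3. Cx3cr1, the fractalkine receptor, had 548, 26.6 and 700 CPM in SUS libraries, against 225, 11.2 and 19 in RES and 229, 438 and 25.8 in naive libraries. P2ry12, a nucleotide receptor, ran from 3.15 to 72.9 times background in SUS, 1.67 to 30.4 in RES and 3.38 to 53.3 in naive libraries, and Tmem119 from 1.69 to 36.8, 0.756 to 8.03 and 2.2 to 20.6 in the same groups. Cd74 and the chain genes were low in SUS replicate 2 and RES replicates 2 and 3 as well, but not in naive replicate 3.

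Set against the microglial genes, Cd74 was nearly constant in 5 libraries and higher in the other 4. Per 100 counts of the 18 microglial genes, Cd74 had 2.79, 8.1 and 2.58 counts in SUS replicates 1 to 3, 2.58, 7.09 and 4.5 in RES, and 2.69, 2.62 and 14.8 in naive libraries. The exact 95% binomial intervals were 2.63 to 2.96, 7.07 to 9.25 and 2.43 to 2.72 in SUS, 2.28 to 2.92, 5.41 to 9.17 and 3.61 to 5.56 in RES, and 2.43 to 2.97, 2.33 to 2.95 and 13.6 to 16.1 in naive libraries, and they cover counting error only. SUS replicates 1 and 3, RES replicate 1 and naive replicates 1 and 2 thus lay between 2.58 and 2.79, and naive replicate 3 stood highest. With background taken off both, the ratio was 2.79, 10.6 and 2.56 in SUS, 2.55, 10.9 and 5.77 in RES, and 2.66, 2.61 and 19.4 in naive libraries. The protease gene Ctss, treated in the same way, ran from 22.1 to 25.3 in SUS, 11.3 to 29.7 in RES and 22.1 to 26.3 in naive libraries, with naive replicate 3 at 22.1.

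Division by the microglial counts of each library, in place of TMM scaling, shifts every gene alike, by -2.17 for SUS against RES, 1.59 for RES against naive and -0.58 for SUS against naive on the log2 scale. Values on that scale say how a gene compares with the microglial genes and not in which group it was higher. Cd74 was at -0.17 for SUS against RES, -0.11 for RES against naive and -0.28 for SUS against naive there. Ciita, at background throughout, was at -2.10 for SUS against RES. The 4 libraries with higher ratios had the fewest microglial counts above background, 1964 in SUS replicate 2, 454 and 1064 in RES replicates 2 and 3, and 2902 in naive replicate 3. The other 5 libraries had 9876 to 47430.

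**Figure D3:**
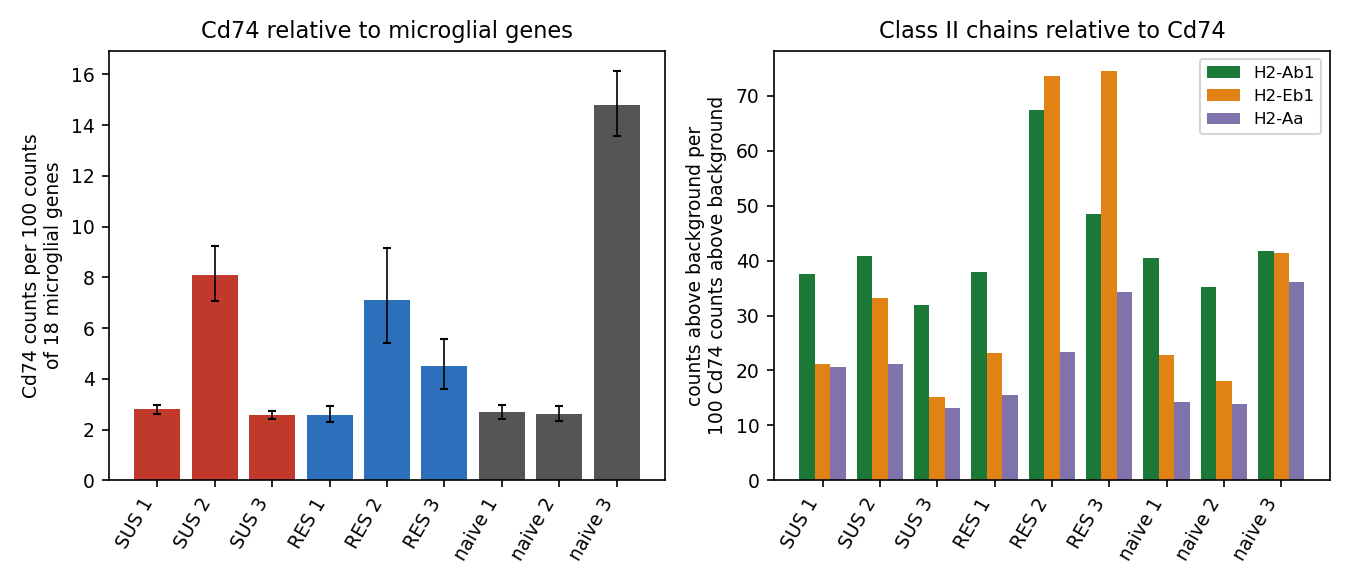
Left, Cd74 counts per 100 counts of 18 microglial genes in each library, with exact 95% binomial intervals; right, counts of H2-Ab1, H2-Eb1 and H2-Aa above background per 100 counts of Cd74 above background. On the left 5 libraries lie between 2.58 and 2.79 and naive replicate 3 lies at 14.8; on the right H2-Eb1 runs from 15.2 in SUS replicate 3 to 74.5 in RES replicate 3.

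H2-Aa and H2-Eb1 did not keep a fixed proportion to the invariant chain, while H2-Ab1 departed from 32 to 41.8 only in RES replicates 2 and 3. Above background, H2-Ab1 had 37.5, 40.9 and 32 counts per 100 of Cd74 in SUS, 38, 67.5 and 48.5 in RES, and 40.5, 35.2 and 41.8 in naive libraries. H2-Aa had 20.6, 21.1 and 13.2 in SUS, 15.6, 23.4 and 34.4 in RES, and 14.2, 13.9 and 36.1 in naive libraries. H2-Eb1 had 21.2, 33.2 and 15.2 in SUS, 23.2, 73.5 and 74.5 in RES, and 22.8, 18.1 and 41.3 in naive libraries. Naive replicate 3 was level with naive replicates 1 and 2 for H2-Ab1, but above both of them for H2-Aa and H2-Eb1. The proportions in RES replicates 2 and 3 rest on few counts above background, 49.6 and 61.4 for Cd74, 33.5 and 29.8 for H2-Ab1, 36.4 and 45.8 for H2-Eb1, and 11.6 and 21.1 for H2-Aa. In these libraries H2-Aa was at 1.38 and 1.31 times background, and H2-Ab1 was at 1.66 in RES replicate 3. Those levels lie within the range of 95% of the olfactory receptor genes.

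Markers of other cells that carry class II were measured in the same libraries, and none of these genes was at 0 in all of them. The 14 markers of border and blood macrophages summed to 216 to 508 CPM in SUS libraries, against 180 to 249 in RES and 245 to 312 in naive libraries, and naive replicate 3 had 245 CPM. Of these, the mannose receptor Mrc1 was at 2.4 to 6.64 times background in SUS, 2.08 to 3.25 in RES and 3.17 to 4.94 in naive libraries. The platelet factor gene Pf4 was at 2.01 to 4.23 in SUS, 0.866 to 2.13 in RES and 2.51 to 2.82 in naive libraries. Stab1, a scavenger receptor gene, had the highest mean CPM of the 14 in each group. It had 111, 40.9 and 243 CPM in SUS libraries, against 56.6, 26.2 and 38.9 in RES and 84.5, 107.9 and 49 in naive libraries. The other 13 genes summed to 176 to 266 CPM in SUS libraries, against 154 to 198 in RES and 196 to 210 in naive libraries. For SUS against RES, Stab1 and Folr2 had log2 fold changes of 1.69 and 1.63, Mrc1 and Pf4 of 0.84 and 0.76, and the other 10 lay between -0.21 and 0.25, with Ms4a7, Cbr2, Ly6c2 and Plac8 below 0. Folr2 did not rise above background, with 1 to 28 counts per library and 0.0514 to 1.01 times background. The 9 dendritic cell markers summed to 122 to 145 CPM in SUS libraries, against 111 to 148 in RES and 118 to 137 in naive libraries, with Flt3 between 1.52 and 2.04 and Zbtb46 between 1.42 and 1.9 times background. The 7 B cell markers summed to 77.5 to 130 CPM in SUS libraries, against 70.9 to 100.5 in RES and 74.4 to 111 in naive libraries. Ighm, the heavy chain of IgM, had 39.5, 6.43 and 48 CPM in SUS libraries, against 15.2, 7.52 and 9.23 in RES and 23.9, 26 and 3.33 in naive libraries, with a log2 fold change of 1.55 (SE 0.66) for SUS against RES. The other 6 summed to 70.4 to 82.2 CPM in SUS libraries, against 63.4 to 91.3 in RES and 71.1 to 84.6 in naive libraries, and Cd79a and Cd79b were at 1.14 to 2.32 and 1.39 to 2.28 times background. The 8 T cell markers summed to 76.5 to 101 CPM in SUS libraries, against 65.3 to 89.3 in RES and 71 to 82.1 in naive libraries. The part of these cell types in the differences of the class II genes was not tested beyond the ratios to microglial counts.

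The other genes of the class II route were taken as 5 lists with 35 genes, and by edgeR's quasi-likelihood test with Benjamini-Hochberg adjustment over all genes 0 of 35 were called in either direction in any of the 3 comparisons. For SUS against RES, 29 of 35 had a positive log2 fold change (median 0.51) and 13 had an unadjusted p under 0.05, beside 5.68% of all genes. For RES against naive 28 of 35 had a negative one (median -0.28) and 1 had an unadjusted p under 0.05, beside 0.921% of all genes. For SUS against naive 30 of 35 had a positive one (median 0.29) and 0 had an unadjusted p under 0.05, beside 3.12% of all genes. Of all genes, 51.2%, 47.4% and 52.2% had a positive fold change in the 3 comparisons. The lists were chosen with earlier results of these data known and the comparisons share libraries, so nothing is read from these shares.

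Antigen processing genes had the largest median fold changes of the 5 lists. All 8 had a positive log2 fold change for SUS against RES (median 1.89, range 0.37 to 2.28) and SUS against naive (median 0.76), and a negative one for RES against naive (median -1.17). The microglial genes Cx3cr1, P2ry12 and Tmem119 had 2.32, 2.03 and 2.70 for SUS against RES (SE 1.17, 1.17 and 1.02). The part of microglia in the values of the list was not tested. Ifi30, a thiol reductase of endosomes, averaged 19.9 ± 11.7 CPM in SUS and 7.44 ± 4.49 CPM in RES (SD, n = 3 each), with a log2 fold change of 1.42 (SE 0.51). The cathepsin genes Ctsl, Ctsd and Ctsb had log2 fold changes of 1.71, 2.28 and 1.56 for SUS against RES (SE 0.709, 0.958 and 0.671). Ctss, which cuts the invariant chain, had 953, 55.5 and 1456 CPM in SUS libraries, against 516, 13.3 and 26.7 in RES and 409, 877 and 61.9 in naive libraries. Unlike Cd74 and the chain genes it was low in naive replicate 3, as was Cst3, an inhibitor of cathepsins, with 157 CPM there against 566 and 896 CPM in naive replicates 1 and 2.

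The other chains and loading genes were divided. H2-DMb1, a beta chain of DM, had 13, 8.09 and 18.1 CPM in SUS libraries, against 6.84, 7.3 and 10.3 in RES and 13.9, 11.2 and 13.1 in naive libraries. Its RES libraries were all below its naive libraries, a pattern found in 2.82% of all genes. Its log2 fold change was 0.67 (SE 0.287) for SUS against RES. It was -0.64 (SE 0.291) for RES against naive and 0.03 (SE 0.279) for SUS against naive. H2-DMb2, the other DM beta chain gene, averaged 11.7 ± 5.54 CPM in SUS and 11.3 ± 2.44 CPM in RES (SD, n = 3 each). H2-Ob and H2-Oa, the chains of the DM inhibitor DO, had log2 fold changes of 0.36 and -0.31 for SUS against RES, and H2-Eb2 had -0.28. H2-Ob and H2-Eb2 averaged 0.865 and 1.02 times background, and the near-identical DM beta chain genes could share reads.

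Among the genes on the way from interferon gamma to Ciita, 7 of 8 had a positive log2 fold change for SUS against RES (median 0.88) and 8 of 8 for SUS against naive (median 0.52), while 5 of 8 were negative for RES against naive. Ifngr2, a chain of the receptor, averaged 29.3 ± 15.2 CPM in SUS and 11.4 ± 5.75 CPM in RES (log2 fold change 1.36, SE 0.43). The transcription factor Irf1 averaged 53 ± 37.7 CPM in SUS and 15.7 ± 10.9 CPM in RES (1.75, SE 0.612). Socs1, a brake on the pathway, and Ifngr1, the other receptor chain, had 0.97 (SE 0.406) and 1.34 (SE 0.582), but Socs1 was at background, with 6 to 69 counts per library and 0.258 to 1.3 times background. The ligand gene Ifng ran from 0.861 to 1.76 times background.

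The factors that bind class II promoters had small differences, with medians of 0.08 for SUS against RES, -0.11 for RES against naive and 0.18 for SUS against naive over 7 genes. Only 1 of the 7 averaged over 3 times background, and closeness to background limits what their fold changes can show. Nfya, a subunit of the factor that binds CCAAT, had the highest value for SUS against RES, 0.73 (SE 0.369), followed by Creb1 (0.42), the X box factor Rfx5 (0.16) and Nfyb (0.08). Of 7 genes of surface turnover and co-stimulation, 6 had a positive log2 fold change for SUS against RES (median 0.42). The adhesion gene Icam1 was at 1.87 (SE 0.742), the co-stimulatory genes Cd86 at 1.23 (SE 0.53) and Cd83 at 1.44 (SE 0.828), and the receptor gene Cd40 at -0.59 (SE 0.276). Cd40 averaged 10.2 ± 1.82 CPM in SUS and 15.1 ± 1.19 CPM in naive libraries (SD, n = 3 each). It was close to background, at 1.1 to 1.78 times background in SUS, 1.58 to 2.75 in RES and 2.07 to 2.56 in naive libraries. March1, the ubiquitin ligase that removes class II from the surface, was at 0.42 (SE 0.315).

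**Figure D4:**
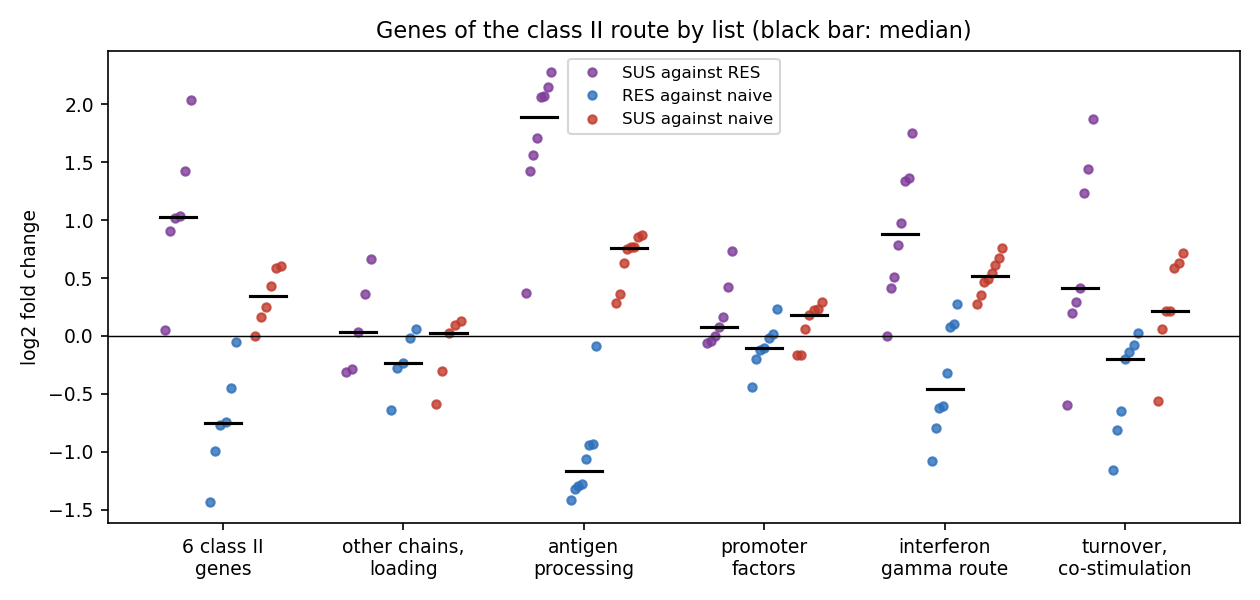
Log2 fold change of each gene (points) in the 6 class II genes and the 5 lists of the class II route, for SUS against RES, RES against naive and SUS against naive; black bars are medians. The antigen processing genes have the highest median for SUS against RES (1.89) and the promoter factors and other chains lie near 0 (0.08 and 0.04). In these last 2 lists, 1 of 7 and 2 of 5 genes averaged over 3 times background.

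The genes most like the class II genes over the 9 libraries were sought by Pearson correlation with their mean log2 CPM among 14419 named genes of at least 10 CPM. The 10 highest were Gm2a, Galnt4, Zfp715, Neat1, Clcn5, Tmem176b, Sap18, Tcof1, Selenok and Tram1, with r from 0.957 to 0.975. Gm2a, a lysosomal lipid-binding protein, had 45.6, 14.6 and 46.8 CPM in SUS libraries, against 24.9, 13.5 and 10.9 in RES and 25.5, 26.3 and 24.1 in naive libraries, so that naive replicate 3 was level with the other naive libraries. The long noncoding RNA Neat1 had 381, 94.9 and 455 CPM in SUS libraries, against 217, 104 and 71.8 in RES and 174, 235 and 252 in naive libraries. Among the members, r was 0.993 for Cd74 with H2-Ab1 and 0.979 for H2-Aa with H2-Eb1, while Ciita had -0.259 to -0.001 with the other 5. The points share libraries and their depth, and these values describe likeness and carry no test.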

How the data were processed

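The authors deposited 1 table of raw counts per Ensembl gene for the 9 libraries, whole numbers without scaling. Per the submitters' processing notes, the tools were DESeq, DESeq2, FastQC, HTSeq and STAR 2.5.2b on GRCm38, named with no roles or order; strand setting and annotation release are not given in the sources used here. Symbols, positions and exonic lengths came from GENCODE mouse release 21 (52403 of 52636 IDs matched). Groups follow the titles. Low genes were removed by filterByExpr, and counts with TMM factors (0.743 to 1.58) were fitted in 1 model of 3 groups with the edgeR quasi-likelihood test (edgeR 4.0.16, limma 3.58.1, DESeq2 1.42.0, R 4.3.3), adjusted over 39210 genes at 0.05, after the fits were tested on simulated data. Each standard error was the fold change over the root of F. Likeness used log2 CPM with a prior count of 2.

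The members and lists were chosen with earlier results of these data known. All 6 members were named; of each list, up to 4 genes with the smallest unadjusted p in SUS against RES, and the 10 genes most like the members. Other list genes named (Cst3, Ctss, H2-DMb2, Stab1, Folr2 and Ighm among them), H2-Ea-ps, Brd2 and Dexi were added after their values were seen. Nothing says that replicates came from separate animals, so standard errors and p-values measure the spread between these libraries only. Alternatives were other scalings, filters, tools, a replicate block and leaving out libraries.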

Additional observations from a re-analysis of the deposited data

How the results depend on the processing

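No gene was called in any of the 3 comparisons under the 16 alternatives that give a test, with 764 to 4712, 246 to 1671 and 733 to 3576 genes at an unadjusted p under 0.05 for SUS against RES, RES against naive and SUS against naive. With 1 library left out, the median log2 fold change of the 6 class II genes ran from 0.72 to 1.34, -0.92 to -0.64 and 0.14 to 0.69. Size factors of DESeq2, no filter, no mitochondrial genes, DESeq2 and limma-voom kept the direction of the 3 medians, as did leaving out both RES replicate 3 and SUS replicate 3, a set chosen after seeing the data (0.84, -0.69 and 0.15). The replicate numbers pair nothing that the labels state, and same-numbered libraries had correlations of -0.17 to 0.172 in their deviations from the group means. With the replicate block the medians were 1.00, -0.76 and 0.24 and 0 genes were called. A library correlated best with its own number in another group in 3 of 18 cases.

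With olfactory receptor density subtracted, which leaves 4 genes because H2-DMa and Ciita reached background in a library, the medians were 1.84, -1.65 and 0.19 for SUS against RES, RES against naive and SUS against naive. The same 4 genes without the subtraction had 1.12, -0.92 and 0.20, as differences of group means of log2 CPM. Scaling to microglial counts shifts every gene alike, by -2.17, 1.59 and -0.58, so signs turn for any gene that differed less than the microglial genes, and for genes at background such as Ciita. The medians were then -1.23, 0.85 and -0.38. For SUS against RES the single genes were then at -0.17 for Cd74, -1.23 for H2-Aa, -0.86 for H2-Ab1, -1.36 for H2-Eb1, -1.23 for H2-DMa and -2.10 for Ciita. For RES against naive they were at 0.83 for H2-Aa, 0.50 for H2-Ab1, 0.87 for H2-Eb1, 1.17 for H2-DMa and 1.51 for Ciita, and for SUS against naive at -0.40 for H2-Aa, -0.36 for H2-Ab1, -0.49 for H2-Eb1 and -0.059 for H2-DMa. The sign of Ciita turned in 6, 5 and 3 of 18 alternatives in the 3 comparisons, and in SUS against naive that of H2-Eb1 in 3 of 19 and of H2-Aa in 2 of 19. Counts per library ran from 31 to 177 for H2-DMa and 67 to 235 for Ciita, and the level of Ciita is limited by its closeness to background.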
